A study of Mus musculus with 47 samples.

Results

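The genes described here are 10 genes of the skeletal and cardiac muscle programme that are also transcribed in the medulla of the thymus: Myog, Mef2c, Chrna1, Ryr2, Acta1, Actc1, Myl1, Ttn, Des and Ckm. They were chosen by name, their Ensembl identifiers were matched to symbols of the GRCm38 mouse annotation, and all 10 were found among the 53402 genes listed in both count tables of the study. Of the 10, 7 (Myog, Chrna1, Acta1, Myl1, Ttn, Des and Ckm) were taken as genes of muscle mimetic cells. Actc1, Mef2c and Ryr2 were added because of their pattern after combined loss of Aire and EED in neonatal cells, so their values in all neonatal comparisons, mTEClo included, are given as a description without a test. All 10 were taken with earlier results of these data known.

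RNA was sequenced from sorted medullary thymic epithelial cells (mTECs) of C57BL/6 mice, taken as DAPI-CD45-EpCAM+Ly51- cells split by MHC class II into a high (mTEChi) and a low (mTEClo) fraction, which separates mature from less mature mTECs. The adult table held 23 libraries: 7 WT and 4 AireKO libraries of mTEChi and 8 WT and 4 AireKO libraries of mTEClo. WT mice were 4 or 5 weeks old and of both sexes, whereas AireKO mice, which lack Aire in every cell, were 5 or 6 weeks old and all male. The neonatal table held 24 libraries from mice 1 to 6 days old. In mTEChi there were 5 Ctrl, 3 EEDcKO, 3 AireKO and 3 AireEEDdKO libraries, and in mTEClo 3 Ctrl, 4 EEDcKO and 3 AireEEDdKO libraries. EEDcKO mice carried floxed Eed alleles and Foxn1-Cre, a Cre driven by a promoter of thymic epithelium, so that EED, which Polycomb repressive complex PRC2 needs for its activity, was deleted in thymic epithelium. AireEEDdKO mice combined this deletion with germline loss of Aire. The alleles of the Ctrl mice are not named in the labels, and some neonatal libraries pooled male and female pups.

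Skeletal muscle genes are switched on in a cascade in which MyoD-family basic helix-loop-helix factors, myogenin (Myog) among them, bind E-box sequences and act together with MEF2 factors on genes of the contractile apparatus. The thymus has long been known to contain rare muscle-like (myoid) cells, and some mTECs take on the transcription programmes of peripheral cell types and are then called mimetic cells, a muscle type among them. Presentation of muscle antigens in the thymus is of interest because the muscle acetylcholine receptor, whose alpha subunit is encoded by Chrna1, is the main autoantibody target in myasthenia gravis, and titin (Ttn) is another. Aire promotes the transcription of many tissue-restricted genes in mTECs, and PRC2 deposits the repressive histone mark H3K27me3.

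The start regions of Myog, Chrna1 and Acta1 are shown because these genes are the regulator, the receptor and the contractile gene on which most of the comparisons turn. Each sequence holds the 250 bases before the RefSeq start on GRCm38.p6, read 5′ to 3′ on the strand of the gene, with capitals marking E-box letters (CANNTG) and, in Acta1, also a CArG box and the letters TATAAA. They lie at chr1:134289754-134290003 (plus strand) for Myog, chr2:73580339-73580588 (minus strand) for Chrna1 and chr8:123894776-123895025 (minus strand) for Acta1.
Myog: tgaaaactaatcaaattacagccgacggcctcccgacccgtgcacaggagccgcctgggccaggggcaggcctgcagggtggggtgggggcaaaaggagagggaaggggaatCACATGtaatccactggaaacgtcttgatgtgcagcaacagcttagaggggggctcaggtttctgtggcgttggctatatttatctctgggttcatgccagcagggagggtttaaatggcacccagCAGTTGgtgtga
Chrna1: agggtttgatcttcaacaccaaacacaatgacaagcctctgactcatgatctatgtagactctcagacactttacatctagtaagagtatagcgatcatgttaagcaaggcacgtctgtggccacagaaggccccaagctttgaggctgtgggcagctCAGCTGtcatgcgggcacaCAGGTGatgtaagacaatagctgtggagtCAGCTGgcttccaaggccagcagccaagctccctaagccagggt
Acta1: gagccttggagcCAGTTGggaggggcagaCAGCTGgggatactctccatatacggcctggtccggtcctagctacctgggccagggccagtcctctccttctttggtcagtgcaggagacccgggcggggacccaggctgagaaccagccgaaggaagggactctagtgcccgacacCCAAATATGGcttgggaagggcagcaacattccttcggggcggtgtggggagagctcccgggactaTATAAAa

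The Myog window held 2 E-boxes, starting 138 and 12 bases before the start. The Chrna1 window held 3, starting 92, 73 and 44 bases before the start, of which 2 read CAGCTG. The Acta1 window held 2 E-boxes, 238 and 221 bases before the start, and a CArG box, the element bound by serum response factor, 73 bases before it. Among all 10 genes, which all matched the RefSeq table, 9 held an E-box and 5 held CAGCTG in at least 1 listed start region. E-box letters are common, since 66.2% of 32817 RefSeq start regions of the same length held 1, whereas CAGCTG was found in 13%, a CArG box in 1.47%, a MEF2 site in 2.92% and TATAAA in 12.4%. Both strands were searched, each CAGCTG is also an E-box, and a match of letters is no evidence of binding. The MEF2 pattern was YTAWWWWTAR (Y for C or T, W for A or T, R for A or G), and looser matches were not counted. The only match to it among the 10 genes, CTAAATTTAG, lay 166 bases before the start of Ttn. The Myog window holds ctatatttat, which differs from the pattern at its last base. RefSeq and GENCODE starts differed by 6318 bases for Ckm, 673 bases for Actc1 and 348 bases for Myl1, so the windows of these genes may not cover the start used in mTECs.

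The depth of the adult libraries was 1602125 to 3938588 counts, and that of the neonatal libraries 1578579 to 4817418. Aire fell from 818 ± 56.0 (SD, n = 7) CPM (counts scaled to a common library size by TMM) in adult WT mTEChi to 29.3 ± 11.6 (n = 4) in AireKO mTEChi, and from 619 ± 154 (n = 5) CPM in neonatal Ctrl mTEChi to 70.6 ± 38.7 (n = 3) in AireKO and 21.6 ± 11.2 (n = 3) in AireEEDdKO. Eed was at 24.2 to 39.5 CPM in the neonatal groups with EED and at 13.6 to 15.2 CPM in those without (group means), so that Eed transcripts persisted after the deletion. All 10 mTEC markers searched were detected in every group. Of the adult libraries, 6 held 0 mitochondrial counts whereas the other 17 held 6178 to 10339. The libraries without such counts were all 4 AireKO libraries of mTEChi and AireKO replicates 3 and 4 of mTEClo, so in adult mTEChi genotype and this kind of library cannot be told apart. Among the neonatal mTEClo libraries, all 3 of AireEEDdKO and EEDcKO replicates 3 and 4 belong to a later block of accessions. The labels do not say that replicates came from separate mice, and p-values measure the spread between these libraries.

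Among the 10 genes, the receptor gene Chrna1, both sarcomeric actin genes and Ryr2 were lower in AireKO than in WT mTEChi of adults, and Des was higher. With the threshold used throughout (a Benjamini-Hochberg adjusted p under 0.05 in edgeR's quasi-likelihood test over all genes, and at least a 2-fold change), 6 of the 10 genes fell and 1 rose in AireKO mTEChi, where 23.4% of 19310 tested genes passed in either direction, 17.8% lower and 5.63% higher. The median log2 fold change was -1.69 over the 10 genes and -0.01 over all genes. Of 7 mesenchymal markers, 4 fell and 1 rose in the same comparison, with Col1a1 at 0.912 CPM in AireKO and 116 CPM in WT, Pdgfra at 0.207 and 5.82 CPM and Dcn at 76.6 and 30.3 CPM (means), and the part of such cells in the muscle genes was not tested. In adult mTEClo, by contrast, 4 of the 10 genes rose in AireKO and 0 fell, against 8.3% of all genes in either direction (4.42% higher, 3.88% lower), with a median of 0.21 over the 10 genes and 0.00 over all genes. There 5 myeloid markers summed to 106 to 142 CPM in AireKO and 38.0 to 68.0 CPM in WT. The sums of 4 cortical epithelial markers were 278 to 395 and 174 to 221 CPM. Those of the 7 mesenchymal markers (76.9 to 194 and 64.2 to 97.7 CPM) overlapped, as did those of 6 smooth muscle and pericyte markers. The part of such cells in the muscle genes was not tested here either. Tested as a difference, the effect of Aire loss was lower in mTEChi than in mTEClo for 7 genes and higher for Des, against 13.7% of all genes (11% lower, 2.7% higher). All 10 genes passed the filter on low counts in both tables. In bulk RNA, fewer cells that express a gene and less RNA per cell cannot be told apart.

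**Figure D1:**
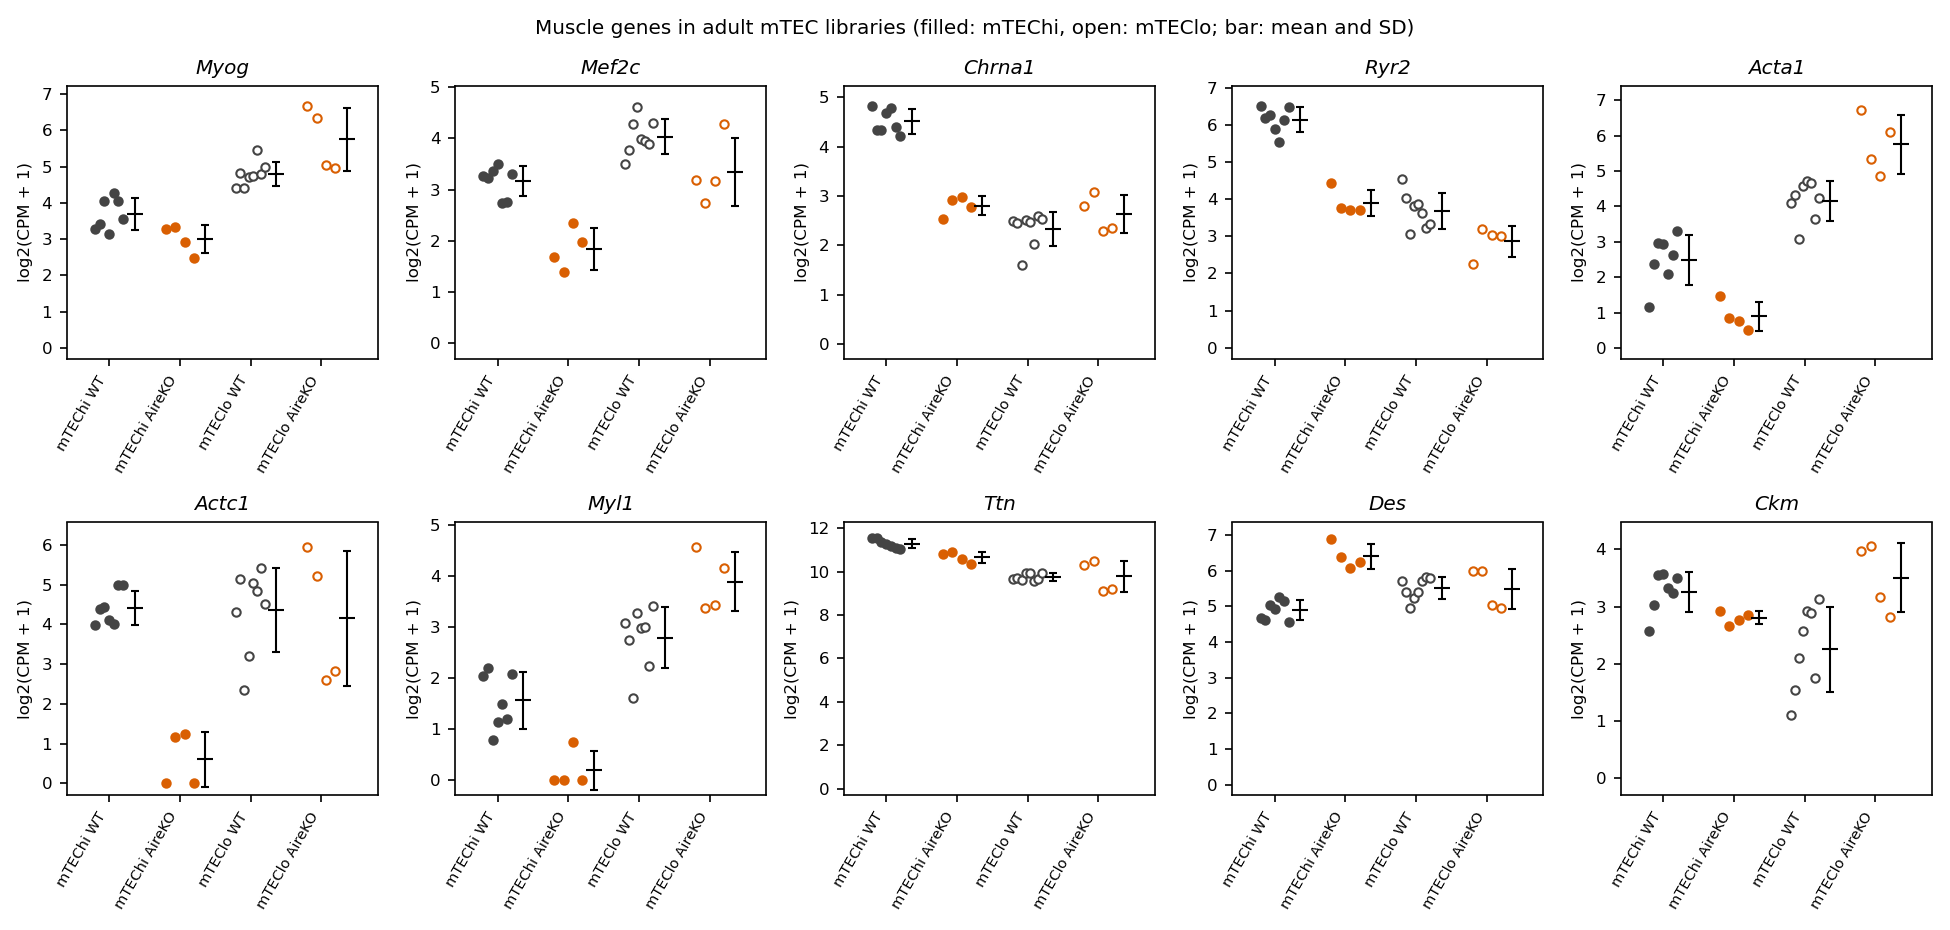
Levels of the 10 genes in the 23 adult libraries, as log2(CPM + 1) on the vertical axis, with a panel per gene. Each point is a library (filled for mTEChi, open for mTEClo, orange for AireKO, grey for WT) and the black bar gives the mean and SD. Chrna1, Ryr2 and Ttn are highest in WT mTEChi, whereas Myog, Acta1 and Myl1 are highest in AireKO mTEClo.

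Myogenin, encoded by Myog (chromosome 1, 134289989 to 134292548), drives the terminal differentiation of myoblasts. In adult mTEClo it was at 20.1, 26.1 and 42.7 CPM in the lowest, median and highest of the 8 WT libraries. The 4 AireKO libraries of mTEClo lay at 101, 79.5, 31.9 and 30.1 CPM, of which replicates 1 and 2 were above every WT library and replicates 3 and 4 within the WT range. Myog rose in AireKO mTEClo by 1.08 on the log2 scale (SE 0.25, edgeR adjusted p = 0.00248). Replicates 1 and 2 came from mice of 5 weeks and held mitochondrial counts, and replicates 3 and 4 came from mice of 6 weeks and held none. Age and library kind therefore cannot be told apart in this spread. Fits with age in the model, and with only the libraries that held mitochondrial counts, are given below. In mTEChi, Myog was at 8.78, 9, 6.5 and 4.59 CPM in AireKO and at 7.85, 10.7 and 18.3 CPM (lowest, median, highest, n = 7) in WT. These ranges overlapped, and the difference of -0.81 (SE 0.37) missed the threshold (edgeR adjusted p = 0.0669). Myog was lower in mTEChi than in mTEClo in both genotypes, by 1.12 log2 units in WT (log2 fold change -1.12, SE 0.25, edgeR adjusted p = 0.000277) and by more in AireKO (-3.01, SE 0.36, edgeR adjusted p = 3.74e-08). Without mTEClo WT replicate 6 the WT difference was just under 2-fold.

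Mef2c, a MADS-box factor that acts with myogenic factors, was low in adults. It was at 2.19, 1.64, 4.11 and 2.92 CPM in AireKO mTEChi and at 5.70, 8.67 and 10.3 CPM (lowest, median, highest) in WT mTEChi, with no overlap. The log2 fold change was -1.53 (SE 0.35, edgeR adjusted p = 0.000597). In mTEClo its mean was 10.1 ± 5.71 (SD, n = 4) CPM in AireKO and 15.8 ± 4.17 (n = 8) in WT, which overlapped and did not pass (-0.58, SE 0.25, edgeR adjusted p = 0.0888).

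Chrna1 (chromosome 2, 73563215 to 73580338) encodes the ligand-binding alpha subunit of the muscle acetylcholine receptor. It was at 17.5, 20 and 27.3 CPM (lowest, median, highest) in the 7 WT libraries of mTEChi and at 4.83, 6.55, 6.85 and 5.85 CPM in AireKO mTEChi. Every AireKO library was below every WT library, and the level fell 3.63-fold (log2 fold change -1.86, SE 0.22, edgeR adjusted p = 4.56e-08). In mTEClo the AireKO libraries lay at 3.87 to 7.51 CPM and the WT libraries at 2.04 to 5.04 CPM, and the difference of 0.29 (SE 0.25) did not pass (edgeR adjusted p = 0.478). Hence WT mTEChi held 5.34-fold more Chrna1 than WT mTEClo (2.42, SE 0.18, edgeR adjusted p = 6.89e-13), while AireKO mTEChi and mTEClo differed by 0.27 (SE 0.28, edgeR adjusted p = 0.427), with 2 SE bounds of -0.29 and 0.83. The effect of Aire loss differed between the fractions by -2.15 (SE 0.34, edgeR adjusted p = 2.62e-05).

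Ryr2, the ryanodine receptor that releases calcium in cardiac muscle, followed a similar order in adults. Its libraries were at 45.9, 72.6 and 89.8 CPM (lowest, median, highest) in WT mTEChi and at 20.6, 12.7, 12 and 12.1 CPM in AireKO mTEChi. The groups did not overlap, and Ryr2 fell 4.98-fold (-2.31, SE 0.23, edgeR adjusted p = 3.31e-09). WT mTEChi exceeded WT mTEClo 5.90-fold (2.56, SE 0.18, edgeR adjusted p = 3.62e-13). In AireKO the difference between the fractions was 1.10 (SE 0.32, edgeR adjusted p = 0.0042), and it was under 2-fold without mTEClo AireKO replicate 1 (0.94), without mTEChi AireKO replicate 1 (0.88) and with library size as the only scaling (0.95).

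The skeletal actin gene Acta1 and the cardiac actin gene Actc1 encode the thin-filament actins of striated muscle. Acta1 was at 106, 39.4, 28.0 and 67.0 CPM in AireKO mTEClo and at 7.39, 18.5 and 25.2 CPM (lowest, median, highest) in WT mTEClo. All AireKO libraries were above all WT libraries, the only gene of the 10 for which this was so (5.86% of all genes were higher without overlap), and Acta1 rose 3.29-fold (1.72, SE 0.28, edgeR adjusted p = 4.52e-05). In mTEChi it was at 1.76, 0.818, 0.685 and 0.418 CPM in AireKO, that is at 4, 2, 2 and 1 counts, and at 1.24, 5.16 and 8.93 CPM (lowest, median, highest) in WT. The fall of 2.54 log2 units (log2 fold change -2.54, SE 0.70, edgeR adjusted p = 0.00297) came with ranges that overlapped. With a term for library kind in the model it was -1.93 and no longer passed (edgeR adjusted p = 0.0754). That term rests only on AireKO mTEClo replicates 1 and 2 against 3 and 4, which also differ in age. No mTEChi group held both kinds.

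Actc1 was at 0, 3, 4 and 0 counts in AireKO mTEChi (0, 1.23, 1.37 and 0 CPM), where 0 counts allow up to 3 counts, and at 14.9, 19.8 and 30.7 CPM (lowest, median, highest) in WT mTEChi. The libraries of the genotypes did not overlap (log2 fold change -4.85, SE 0.96, edgeR adjusted p = 0.000105), and with a term for library kind the difference was -1.74 (edgeR adjusted p = 0.263). Here too the term rests on the AireKO libraries of mTEClo alone. In mTEClo, AireKO libraries were at 60.6, 36.3, 5.06 and 6.07 CPM and WT libraries at 4.08, 24.8 and 42.0 CPM (lowest, median, highest). The AireKO replicates without mitochondrial counts were again the lower pair, and the overall difference of 0.06 (SE 0.50) did not pass (edgeR adjusted p = 0.953). The transcripts of these genes shared no exact stretch of read length: of the windows of 50 bases in the Acta1 transcript 0% occurred in Actc1 and 2.22% in any other gene, and of those of Actc1 0% occurred elsewhere. Alignments with mismatches were not examined.

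Ttn, encoding the giant elastic protein titin of the sarcomere, has by far the longest transcript of the 10. It was at 2124, 2499 and 3011 CPM (lowest, median, highest) in WT mTEChi and at 1788, 1894, 1534 and 1302 CPM in AireKO mTEChi. The groups did not overlap and differed by -0.63 (SE 0.18, edgeR adjusted p = 0.00434), short of a 2-fold change. WT mTEChi held 2.91-fold more Ttn than WT mTEClo (1.54, SE 0.15, edgeR adjusted p = 2.86e-10). Per kilobase of exon, Ttn led the 10 genes in WT mTEChi at 21.6 ± 3.05 CPM per kb, followed by Actc1 at 13.1 ± 4.26, whereas Myog led in WT mTEClo at 18.3 ± 4.78 (SD).

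Des, the gene of the muscle intermediate filament desmin, was the only one of the 10 that rose in AireKO mTEChi. It was at 118, 83.5, 66.4 and 75.2 CPM in AireKO and at 22.5, 29.6 and 37.5 CPM (lowest, median, highest) in WT, with no overlap, and rose 2.88-fold (1.52, SE 0.20, edgeR adjusted p = 2.79e-07). In mTEClo it was at 46.8 ± 18.1 (SD, n = 4) CPM in AireKO and 45.3 ± 9.32 (n = 8) in WT, a difference of -0.01 (SE 0.20, edgeR adjusted p = 0.986). Desmin is not restricted to striated muscle, and the summed level of 6 smooth muscle and pericyte markers, all of them detected, was 810 to 982 CPM in AireKO and 754 to 955 CPM in WT mTEChi. Of these 6, 1 rose and 2 fell. The pericyte marker Cspg4 rose to 143 to 229 CPM in AireKO from 28.8 to 55.3 CPM in WT, whereas Acta2 was at 15.2 and 39.1 CPM and Cnn1 at 1.56 and 12.95 CPM (means). The part of such cells in the Des result was not tested.

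Myl1, an essential light chain of fast skeletal myosin, and Ckm, the muscle creatine kinase that buffers ATP, rose in AireKO mTEClo. Myl1 was at 22.7, 9.39, 9.83 and 16.8 CPM in AireKO and at 2.04, 6.94 and 9.59 CPM (lowest, median, highest) in WT mTEClo (1.19, SE 0.31, edgeR adjusted p = 0.00522). Ckm was at 14.6, 15.7, 8.04 and 6.07 CPM in AireKO and at 1.15, 4.15 and 7.79 CPM in WT mTEClo (1.15, SE 0.31, edgeR adjusted p = 0.00768). Both genes overlapped between the genotypes in mTEClo. Ckm shares 15.5% of its exon bases with the antisense gene A930016O22Rik, and counting ignored strand. In mTEChi, Myl1 had 2 counts over the 4 AireKO libraries and 36 over the 7 WT libraries, a level 9.70 times higher in WT with a 95% counting interval of 2.50 to 83.2. Ckm was at 5.32 to 6.58 CPM in AireKO and 4.96 to 10.9 CPM in WT mTEChi, and the difference of -0.59 (SE 0.33) did not pass (edgeR adjusted p = 0.131).

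Of the 4 genes that rose in AireKO mTEClo, Myog, Ckm and Myl1 depended on single libraries, and Acta1 passed without any of them. Without AireKO replicate 1, only 1 passed, and Myog (0.69), Ckm (0.96) and Myl1 (0.95) were under 2-fold. Without replicate 2, only 2 passed, and Myog (0.90) and Ckm (0.93) were under 2-fold. With the libraries that held mitochondrial counts alone, 5 of the 10 genes passed, these 4 among them, and the log2 fold change of Myog was 1.73. With age in the model, 2 passed and Ckm (1.08, edgeR adjusted p = 0.0837) and Myl1 (1.34, edgeR adjusted p = 0.0517) did not.

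**Figure D2:**
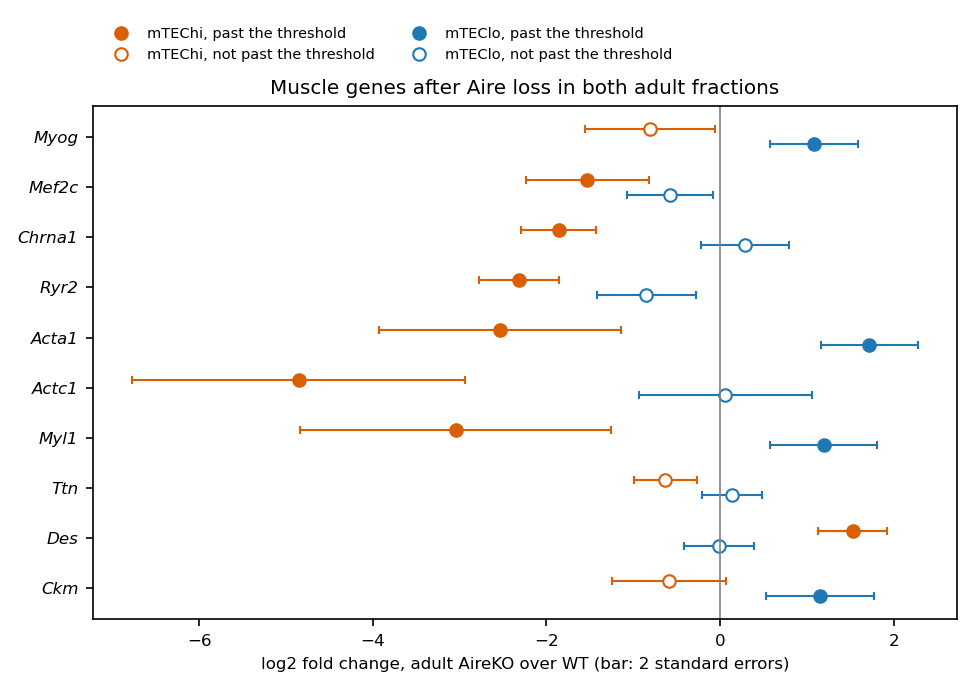
Log2 fold change of AireKO over WT (horizontal axis) for each of the 10 genes (vertical axis) in adult mTEChi (orange) and mTEClo (blue). Bars span 2 standard errors on each side, and filled points passed the threshold. Chrna1, Acta1, Actc1, Myl1, Mef2c and Ryr2 lie left of 0 in mTEChi, Des lies right of it, and Myl1 in mTEChi rests on 2 AireKO counts.

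In the maturation step from mTEClo to mTEChi, the 10 genes moved in both directions. In adult WT, 3 were higher in mTEChi (Chrna1, Ryr2 and Ttn) and 3 lower (Myog, Acta1 and Myl1), whereas 36.1% of all genes passed in either direction (23.7% higher, 12.4% lower). The number higher was near the share of all genes. Acta1 was 3.32-fold lower (log2 fold change -1.73, SE 0.32, edgeR adjusted p = 2.38e-05) and Myl1 3.19-fold lower (-1.67, SE 0.36, edgeR adjusted p = 0.000171). Mef2c was at -0.99 (SE 0.22, edgeR adjusted p = 0.000177), just short of 2-fold. In AireKO, 5 were lower in mTEChi and Ryr2 was higher, with 35.2% of all genes passing (18.5% higher, 16.7% lower). There Acta1 fell by 5.98 on the log2 scale (SE 0.55, edgeR adjusted p = 1.68e-10), Actc1 fell by 5.03 (SE 1.01, edgeR adjusted p = 9.78e-05) and Mef2c fell by 1.95 (SE 0.37, edgeR adjusted p = 4.62e-05). Myl1 was 73.1 times higher in AireKO mTEClo, with a 95% counting interval of 19.9 to 609. In neonatal Ctrl mice 2 of the 7 genes tested were higher in mTEChi and 0 lower, near the share of all genes in either direction (20.7%, with 13.8% higher and 6.92% lower). These were Chrna1 (1.42, SE 0.31, edgeR adjusted p = 0.00125) and Ttn (1.22, SE 0.32, edgeR adjusted p = 0.00587), and with age in the model Ttn was at 0.87 and under 2-fold, which left 1. As a description, Ryr2 was 2.09 log2 units higher in mTEChi. The Myog difference in neonates was 0.60 (SE 0.46, edgeR adjusted p = 0.322).

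Set side by side, Myog in mTEChi was at 12.3 ± 4.09 (SD, n = 7) CPM in adult WT and 13.8 ± 5.93 (n = 5) in neonatal Ctrl, and Ryr2 at 71.5 ± 15.9 and 77.5 ± 15.4 CPM. In mTEClo Myog was at 27.4 ± 7.15 (n = 8) CPM in adult WT and 9.59 ± 2.90 (n = 3) in neonatal Ctrl, and Chrna1 at 4.16 ± 1.05 and 10.5 ± 2.84 CPM. The tables were scaled separately and age was not tested across them.

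In neonatal mTEChi, loss of EED alone raised Myog and Des and lowered Ttn. Of the 7 genes tested, 2 rose and 1 fell in EEDcKO against Ctrl, where 13.9% of 20196 genes passed in either direction (8.48% higher, 5.4% lower), and the median was 0.73 over the 7 genes. Loss of Aire alone left 0 of the 7 past the threshold in edgeR's test and 0 in DESeq2, with 16.4% of all genes past it (3.56% higher, 12.8% lower). At an unadjusted p under 0.05 there were 5 (Myog, Chrna1, Ttn, Des and Myl1). When EED was removed on top of Aire, 6 of the 7 genes rose and 0 fell in AireEEDdKO against AireKO, with 6.69% of all genes higher, 2.78% lower and 9.47% in either direction, and the median was 1.43 over the 7 genes and 0.03 over all genes.

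**Figure D3:**
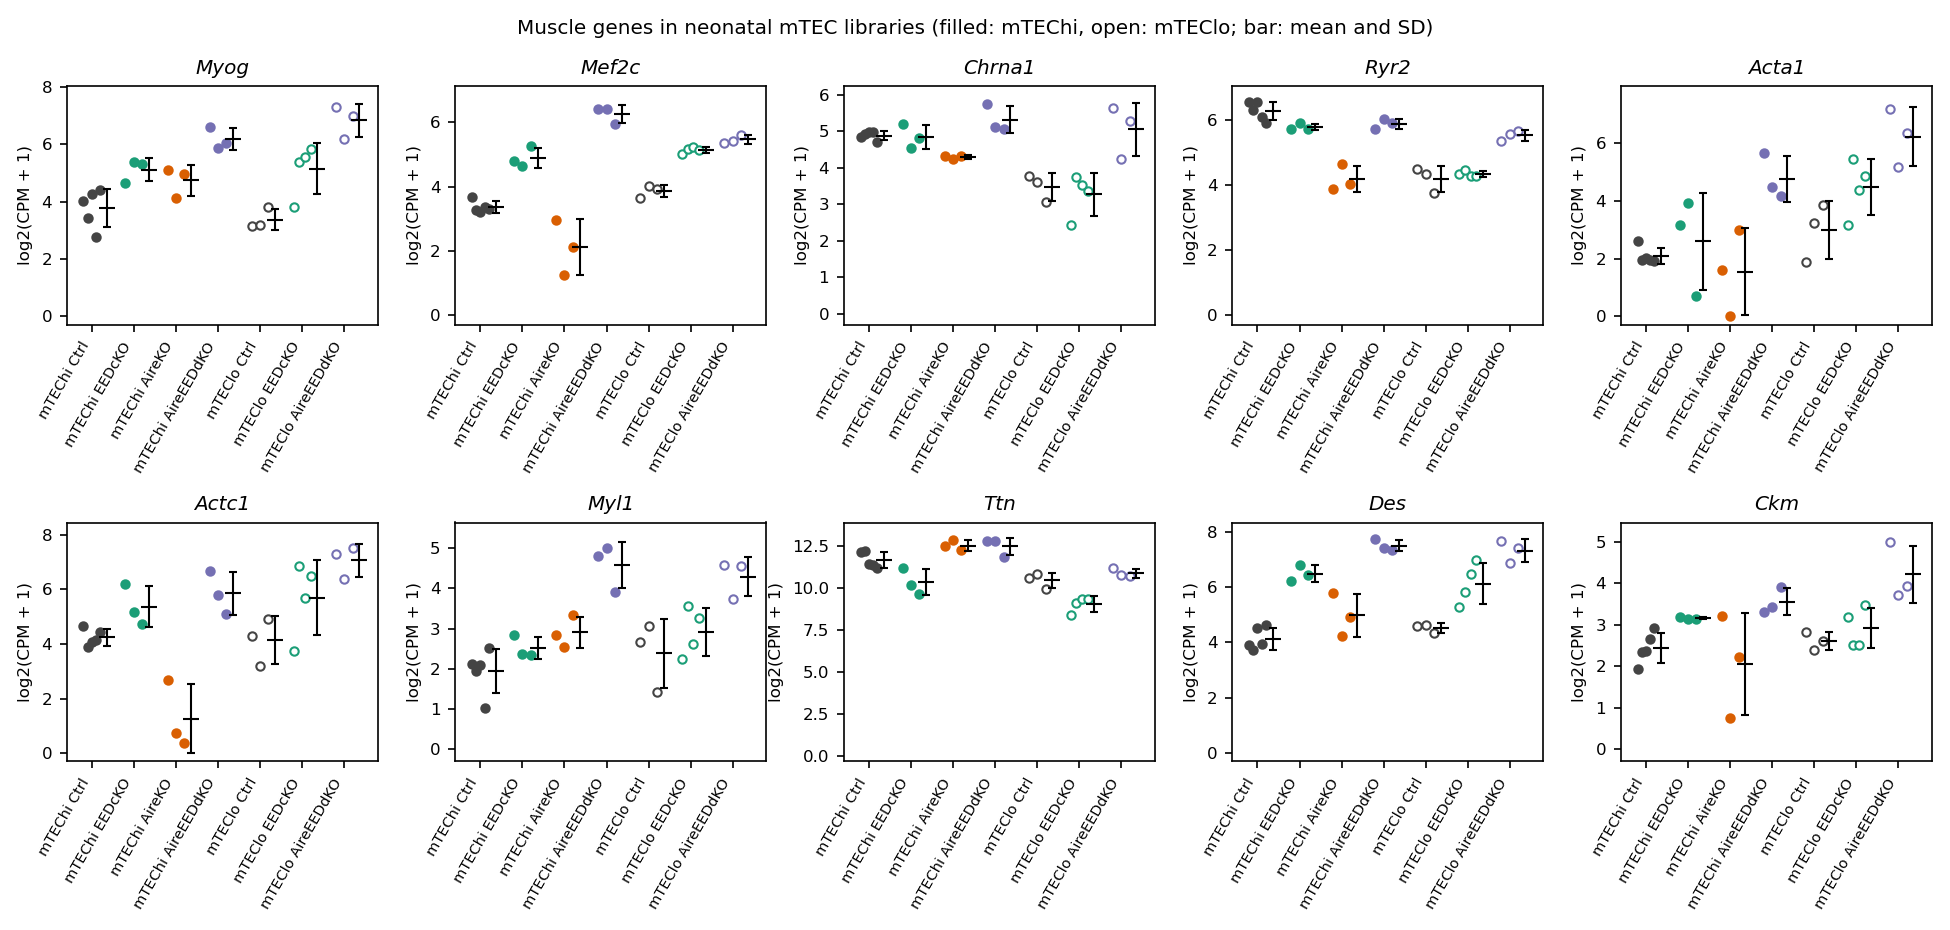
Levels of the 10 genes in the 24 neonatal libraries, as log2(CPM + 1) on the vertical axis, with a panel per gene. Each point is a library (filled for mTEChi, open for mTEClo, colour for genotype) and the black bar gives the mean and SD. AireEEDdKO libraries are above AireKO libraries without overlap for 9 of the 10 genes in mTEChi (18.9% of all genes), and Ttn is the exception. Actc1, Mef2c and Ryr2 were chosen for such a pattern, and among the 7 genes not so chosen it holds for 6.

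Myog in neonatal mTEChi was at 15.2, 9.82, 18.2, 5.81 and 20.1 CPM in Ctrl, at 24.2, 40.5 and 38.4 CPM in EEDcKO, at 33.6, 16.5 and 30.2 CPM in AireKO, and at 95.4, 57.2 and 64.8 CPM in AireEEDdKO. EEDcKO libraries were all above Ctrl, and AireEEDdKO libraries were above those of every other genotype. The rise was 1.32 in EEDcKO over Ctrl (SE 0.38, edgeR adjusted p = 0.011) and 1.41 in AireEEDdKO over AireKO (SE 0.42, edgeR adjusted p = 0.0232), while 1.04 over EEDcKO (SE 0.40) did not pass (edgeR adjusted p = 0.0653). The EEDcKO result was 0.99 with sex in the model (edgeR adjusted p = 0.0539) and 1.17 without EEDcKO replicate 2 (edgeR adjusted p = 0.063). The call of AireEEDdKO over AireKO was lost without AireKO replicate 2 or 3 or AireEEDdKO replicate 1 (1.17 to 1.52).

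Mef2c, one of the genes added for this pattern, was at 11.8, 8.66, 8.25, 9.24 and 8.90 CPM in Ctrl and at 26.6, 23.8 and 37.1 CPM in EEDcKO. In AireKO it was at 6.85, 1.38 and 3.39 CPM and in AireEEDdKO at 83.6, 84.9 and 60.9 CPM. The 4 genotypes did not overlap at any step of the order AireKO, Ctrl, EEDcKO, AireEEDdKO, and as a description AireEEDdKO exceeded AireKO by 4.32 log2 units.

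Chrna1 in neonatal mTEChi was at 27.6, 29.5, 30.5, 30.4 and 25.3 CPM in Ctrl and at 35.9, 22.5 and 27.0 CPM in EEDcKO. It was at 19.2, 17.9 and 18.9 CPM in AireKO and at 53.0, 34.1 and 32.7 CPM in AireEEDdKO. All AireKO libraries were below all others, yet AireKO against Ctrl (-0.61, SE 0.29) did not pass (edgeR adjusted p = 0.121), unlike in the adult, a difference between ages that was not tested. AireEEDdKO exceeded AireKO 2.12-fold (1.08, SE 0.32, edgeR adjusted p = 0.0219). That call was lost without AireKO replicate 1, 2 or 3 or AireEEDdKO replicate 1 (0.83 to 1.09).

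Ryr2 was given for its pattern too. It was at 91.7, 77.4, 93.5, 66.3 and 58.5 CPM in Ctrl, 52.0, 58.6 and 51.3 CPM in EEDcKO, 13.7, 24.1 and 15.3 CPM in AireKO and 51.2, 63.5 and 59.0 CPM in AireEEDdKO. AireKO libraries were the lowest without overlap, and those of AireEEDdKO and EEDcKO overlapped.

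Acta1 was at 5.06, 2.89, 3.03, 2.90 and 2.81 CPM in Ctrl mTEChi, 8.05, 14.2 and 0.629 CPM in EEDcKO, 2.06, 0 and 7.06 CPM in AireKO and 50.0, 21.4 and 17.0 CPM in AireEEDdKO. The AireEEDdKO libraries were above all others and exceeded AireKO 7.21-fold (2.85, SE 0.82, edgeR adjusted p = 0.0179). That Acta1 call was lost without AireKO replicate 1 or 2 or AireEEDdKO replicate 1 (2.25 to 2.64). Actc1, given as a description, was at 24.2, 13.9, 15.7, 16.6 and 20.8 CPM in Ctrl and at 71.8, 34.8 and 25.5 CPM in EEDcKO. It was at 8, 1 and 1 counts in AireKO (5.48, 0.689 and 0.283 CPM) and at 101, 54.9 and 33.4 CPM in AireEEDdKO. The AireKO libraries were below all others and the EED-deficient genotypes overlapped each other. The difference between AireEEDdKO and AireKO was 5.23 log2 units, and 7.12 without AireKO replicate 1.

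Myl1 had 4.09 to 6.19 CPM with EED loss, 4.82 to 9.04 CPM with Aire loss and 14.1 to 31.2 CPM with both, while Ctrl libraries were at up to 4.68 CPM. It was 3.37-fold higher in AireEEDdKO than in AireKO (1.75, SE 0.45, edgeR adjusted p = 0.00931) and 5.10-fold higher than in EEDcKO (2.35, SE 0.46, edgeR adjusted p = 0.000985). Without AireKO replicate 2 the Myl1 difference from AireKO was 1.59 and just missed the threshold. Des was at 14.1, 12.1, 21.7, 14.5 and 23.7 CPM in Ctrl, 73.1, 111 and 86.2 CPM in EEDcKO, 54.1, 17.9 and 29.4 CPM in AireKO and 213, 169 and 162 CPM in AireEEDdKO. Both EED-deficient groups were above both EED-sufficient groups. Des rose 5.10-fold in EEDcKO over Ctrl (2.35, SE 0.31, edgeR adjusted p = 1.14e-05) and 5.42-fold in AireEEDdKO over AireKO (2.44, SE 0.36, edgeR adjusted p = 6.69e-05). Ckm ranged over 2.81 to 6.56 CPM in Ctrl libraries, 7.86 to 8.05 CPM with EED loss, 0.689 to 8.22 CPM with Aire loss and 8.83 to 14.1 CPM with both, and AireEEDdKO exceeded AireKO by 1.43 (SE 0.49, edgeR adjusted p = 0.0477). That Ckm call was lost without any of 5 of the 6 libraries and when only the groups compared were fitted (1.45, edgeR adjusted p = 0.0633).

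Ttn moved differently from the other contractile genes. It was at 4539, 4758, 2752, 2716 and 2366 CPM in Ctrl mTEChi, 2375, 1178 and 825 CPM in EEDcKO, 5769, 7546 and 4896 CPM in AireKO and 7132, 7177 and 3804 CPM in AireEEDdKO. The 2 Ctrl libraries of 6 days were the highest of their group. Ttn fell by 1.23 log2 units in EEDcKO (SE 0.32, edgeR adjusted p = 0.00559), or by 0.94 without EEDcKO replicate 3 (edgeR adjusted p = 0.051). AireEEDdKO held 4.14-fold more than EEDcKO (2.05, SE 0.36, edgeR adjusted p = 0.000357). Its difference from AireKO was -0.01 (SE 0.34), with 2 SE bounds of -0.70 and 0.68. Against EEDcKO, Ttn and Myl1 were the 2 of 7 genes that rose in AireEEDdKO, where 13.3% of all genes passed (4.99% higher, 8.36% lower). This count was 5 with sex in the model, 4 with age in the model and 4 without EEDcKO replicate 2 or AireEEDdKO replicate 3. AireEEDdKO mice were of 4, 6 and 4 days, and EEDcKO mice of 6, 2-3 and 1 days.

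An interaction of Aire and EED loss, which asks whether EED loss acts differently with and without Aire, passed for 0 of the 7 genes in edgeR and in DESeq2, against 1.25% of all genes (0.807% higher, 0.446% lower). At an unadjusted p under 0.05 it held for Chrna1 (1.12, SE 0.42, edgeR adjusted p = 0.175) and Ttn (1.22, SE 0.47, edgeR adjusted p = 0.182), and for Myog it was 0.09 (SE 0.58, edgeR adjusted p = 0.971). The rise of 6 genes in AireEEDdKO over AireKO rested on few libraries. It held for 1 gene without AireKO replicate 2, for 2 without AireEEDdKO replicate 1 and for 3 without AireKO replicate 3. Levels in the comparison were higher in 3 of 3 AireEEDdKO libraries than in any AireKO library for 9 of the 10 genes, where 18.9% of all genes were higher without overlap, but 3 of the 9 (Actc1, Mef2c and Ryr2) were chosen for such a pattern. Both groups held mice of 4, 6 and 4 days.

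In neonatal mTEClo, EED loss raised Myog and Des and lowered Ttn, and the 7 genes tested were higher in AireEEDdKO than in EEDcKO. Of these 7, 2 rose and 1 fell in EEDcKO against Ctrl (15.7% of all genes in either direction, 9.51% higher and 6.22% lower, median 0.46 over the 7 genes and -0.01 over all genes). In AireEEDdKO against EEDcKO, 7 rose and 0 fell (3.45% of all genes higher, 1.85% lower, 5.3% in either direction, medians 1.59 and -0.02). With only these 2 groups fitted 1 of the 7 passed (Ttn), where 40 of 18038 genes passed. In AireEEDdKO against Ctrl, 6 rose and 0 fell (12.4% of all genes higher, 8.2% lower, 20.6% in either direction, medians 1.91 and -0.01). These comparisons share libraries. No neonatal AireKO group of mTEClo was analysed here.

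Myog in mTEClo was at 7.77, 8.07 and 12.9 CPM in Ctrl, 13.1, 41.0, 45.8 and 55.3 CPM in EEDcKO and 157, 71.0 and 126 CPM in AireEEDdKO. The 3 genotypes did not overlap, and Myog rose 4.20-fold in EEDcKO (2.07, SE 0.45, edgeR adjusted p = 0.00136) and a further 3.01-fold in AireEEDdKO (1.59, SE 0.36, edgeR adjusted p = 0.00763). Mef2c was at 11.5, 15.1 and 14.1 CPM in Ctrl, 31.7, 35.2, 36.7 and 34.3 CPM in EEDcKO and 40.1, 42.1 and 48.2 CPM in AireEEDdKO. As a description, the log2 difference was 1.35 at the first step and 0.33 at the next.

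Chrna1 was at 12.8, 11.2 and 7.31 CPM in Ctrl mTEClo, 4.38, 12.6, 10.7 and 9.34 CPM in EEDcKO and 48.6, 17.9 and 38.0 CPM in AireEEDdKO. The AireEEDdKO libraries alone stood apart, and the rise over EEDcKO was 3.70-fold (1.89, SE 0.29, edgeR adjusted p = 0.000461), whereas EEDcKO and Ctrl differed by -0.20 (SE 0.33, edgeR adjusted p = 0.682). Ryr2 was likewise highest in AireEEDdKO, at 39.4 to 49.1 CPM, with Ctrl libraries at 12.4 to 21.6 CPM and EEDcKO libraries at 18.2 to 20.8 CPM, a log2 difference of 1.24 from EEDcKO, given without a test.

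Among the actin genes, Acta1 was at 2.7, 8.42 and 13.5 CPM in Ctrl mTEClo, 8.08, 43.5, 20 and 28.3 CPM in EEDcKO and 144, 34.9 and 80.6 CPM in AireEEDdKO. Neighbouring genotypes overlapped, and AireEEDdKO exceeded EEDcKO 3.46-fold (1.79, SE 0.55, edgeR adjusted p = 0.0453) and Ctrl 11.1-fold (3.47, SE 0.70, edgeR adjusted p = 0.000507). The call against EEDcKO was lost in DESeq2 (1.81, adjusted p = 0.138), with a replicate block (1.80, edgeR adjusted p = 0.126), with only the groups compared (1.81, edgeR adjusted p = 0.168) and without EEDcKO replicate 1, 3 or 4 or AireEEDdKO replicate 1 (1.22 to 1.86). Actc1 was at 18.6, 8.07 and 29.3 CPM in Ctrl, 12.5, 115, 50.5 and 89.6 CPM in EEDcKO and 154, 82.9 and 184 CPM in AireEEDdKO. EEDcKO replicate 1 was within the Ctrl range, and the log2 difference between EEDcKO and Ctrl was 1.89, given without a test.

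Ttn was at 1576, 1851 and 990 CPM in Ctrl mTEClo, 341, 566, 654 and 670 CPM in EEDcKO and 2345, 1754 and 1671 CPM in AireEEDdKO. EEDcKO libraries were below all others, and Ttn fell by 1.40 log2 units in EEDcKO (SE 0.32, edgeR adjusted p = 0.00217) and was 3.45-fold higher in AireEEDdKO than in EEDcKO (1.79, SE 0.32, edgeR adjusted p = 0.00155). It did not differ past the threshold between AireEEDdKO and Ctrl (0.38, SE 0.35, edgeR adjusted p = 0.4). Des ranged over 19.1 to 23.8 CPM in Ctrl libraries, 37.7 to 124 CPM with EED loss and 115 to 202 CPM with both losses, with a rise of 1.78 in EEDcKO (SE 0.35, edgeR adjusted p = 0.000554) and of 1.08 beyond it (SE 0.30, edgeR adjusted p = 0.0277). Myl1 reached 12.3 to 23 CPM in AireEEDdKO and was at 3.70 to 10.8 in EEDcKO (1.45, SE 0.38, edgeR adjusted p = 0.0205). Ckm reached 12.1 to 30.9 CPM and was at 4.67 to 10.1 in EEDcKO (1.45, SE 0.37, edgeR adjusted p = 0.0171). Both genes were higher in every AireEEDdKO library than in any EEDcKO library, as were 5 of the 7 genes tested (7.32% of all genes), the others being Myog, Chrna1 and Ttn.

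The number of genes past the threshold in AireEEDdKO against EEDcKO mTEClo depended on the libraries used. It was 4 without EEDcKO replicate 1 and 2 without AireEEDdKO replicate 1. Within the later block of accessions alone (3 and 2 libraries), 1 passed (Ttn), and all 7 kept their direction. In that fit 50 of 18387 genes passed, against 1071 of 20196 in the main fit. In AireEEDdKO against Ctrl mTEClo, age and accession block cannot be told apart from genotype. The effect of EED loss did not differ between mTEChi and mTEClo past the threshold for any of the 7 genes tested (0 in edgeR, 0 at an unadjusted p under 0.05 and 0 in DESeq2, against 1.58% of all genes, 0.614% higher and 0.97% lower).

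**Figure D4:**
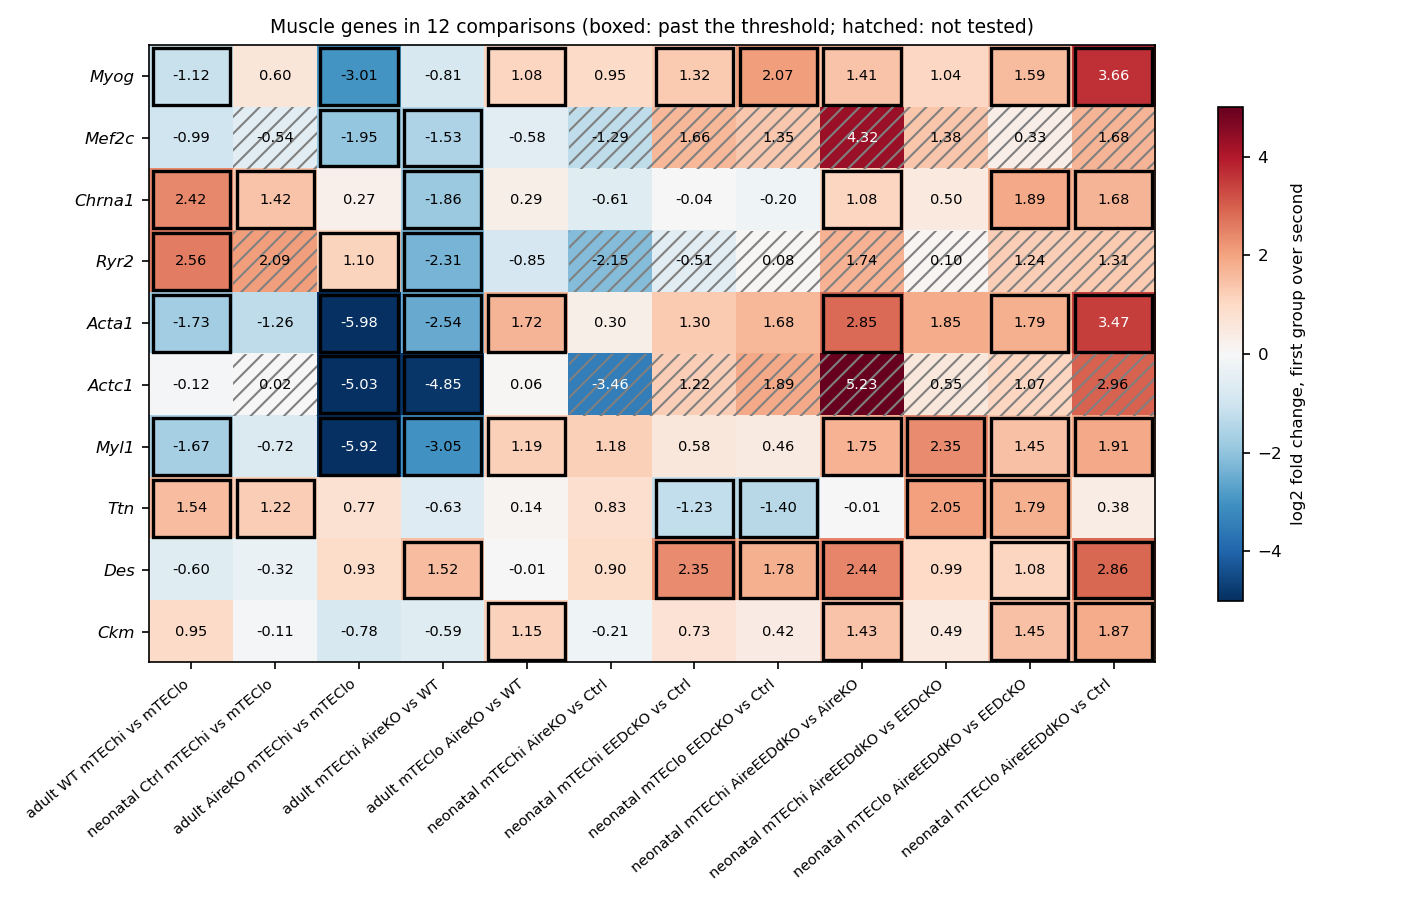
Log2 fold changes of the 10 genes (rows) in 12 comparisons (columns), colour and printed value giving the change of the first group over the second. Boxes mark values past the threshold and hatching the values given without a test. The columns of AireEEDdKO are red for nearly all genes and that of adult mTEChi AireKO is blue for all but Des, with Myl1 resting on 2 counts wherever AireKO mTEChi of the adult enters.

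Markers of other cell types moved with EED loss and with Aire loss. The summed level of 7 mesenchymal genes in mTEClo was 132 to 135 CPM for Ctrl libraries, 564 to 840 CPM with EED loss and 555 to 1079 CPM with both losses. In mTEChi it was 249 to 333 CPM for Ctrl libraries, 250 to 351 CPM with Aire loss, where Pdgfra was at 0, 497 to 781 CPM with EED loss and 421 to 735 CPM with both. The 6 smooth muscle and pericyte markers summed to 793 to 1066 CPM in Ctrl mTEChi, 1151 to 1461 CPM with Aire loss, 1074 to 1356 CPM with EED loss and 1392 to 1634 CPM with both. The part of these cells in the muscle genes was not tested. In mTEClo, 6 of the 7 mesenchymal genes rose in EEDcKO against Ctrl and 0 in AireEEDdKO against EEDcKO. In AireKO against Ctrl mTEChi, 2 rose and 4 fell, with Col1a1 at 0.553 CPM in AireKO and 90.6 CPM in Ctrl and Dcn at 207 and 62.5 CPM (means). The pericyte marker Cspg4 was at 14.8, 59.0 and 135 CPM in Ctrl, EEDcKO and AireEEDdKO mTEClo, and in mTEChi at 27.6 CPM for Ctrl, 79.3 CPM with EED loss, 66.4 CPM with Aire loss and 201 CPM with both (means). The summed level of 4 cortical epithelial markers in mTEClo was 1400 to 2222 CPM for Ctrl libraries, 183 to 632 CPM with EED loss and 193 to 303 CPM with both, and that of 7 thymocyte markers in adult mTEChi was 82.1 to 116 CPM for WT libraries and 43.5 to 57.3 CPM with Aire loss, and their part was not tested either. Of 5 cardiac markers, Nkx2-5 was at 0 in adult mTEClo of both genotypes, in AireKO mTEChi at both ages and in neonatal Ctrl mTEClo. The other 4 were detected in these groups, except for Nppa in neonatal Ctrl mTEClo. Summed, the 5 markers reached 224 to 295 CPM for WT libraries of adult mTEChi and 260 to 292 CPM with Aire loss. In adult mTEClo the sums were 14.4 to 31.6 CPM for WT libraries and 36.2 to 54.1 CPM with Aire loss. They were 166 to 227 CPM for AireKO libraries of neonatal mTEChi and 59.6 to 127 CPM for Ctrl libraries of neonatal mTEClo.

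Other genes of the muscle programme were counted from lists of 106 genes, of which 88 were tested in adults and 97 in neonates. In adult AireKO mTEChi 37 of 88 fell (17.8% of all genes) and 6 rose (5.63%), the latter near the share of all genes, with a median of -0.47 (all genes -0.01). The 9 that fell among 17 tested thick-filament genes included the embryonic and perinatal myosins. Myh8 was at 0 counts in AireKO and 41.1 ± 8.62 (SD, n = 7) CPM in WT, at least 139-fold lower, taking 3 counts over the group as the floor. The methyltransferase Smyd1, needed for sarcomere assembly, was at 0 counts and 25.8 ± 4.76 CPM, at least 86.6-fold lower, and Myh3 was at 0.962 ± 0.738 and 100.3 ± 22.8 CPM. In AireKO mTEClo 11 of 88 rose (4.42% of all genes) and 1 fell (3.88%), with a median of 0.35, led by Mef2b (2.16, SE 0.23, edgeR adjusted p = 8.38e-08), Tnni1 (1.62, SE 0.32, edgeR adjusted p = 0.000396) and Sln (1.57, SE 0.43, edgeR adjusted p = 0.00941).

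The receptor subunits that assemble with Chrna1 did not fall with it in adult AireKO mTEChi. Chrnb1 was at 0.61 (SE 0.16, edgeR adjusted p = 0.00233, under 2-fold), Chrnd at 0.42 (SE 0.26, edgeR adjusted p = 0.169), Chrne at 0.39 (SE 0.22, edgeR adjusted p = 0.141) and Chrng at 0.52 (SE 0.23, edgeR adjusted p = 0.0532). In AireKO mTEClo, where Chrna1 did not pass, Chrnd rose by 1.17 (SE 0.29, edgeR adjusted p = 0.00403), Chrne by 1.16 (SE 0.36, edgeR adjusted p = 0.0201) and Chrng, the subunit of the fetal receptor, by 1.39 (SE 0.36, edgeR adjusted p = 0.0056). In neonatal AireEEDdKO mTEChi against AireKO, Chrnb1 (1.65, SE 0.23, edgeR adjusted p = 3.09e-05) and Chrng (1.25, SE 0.29, edgeR adjusted p = 0.00414) rose along with Chrna1. In AireEEDdKO mTEClo against Ctrl all 4 rose, from Chrne (1.29, SE 0.36, edgeR adjusted p = 0.0072) to Chrnd (2.22, SE 0.32, edgeR adjusted p = 1.81e-05).

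The other myogenic factors were scarce in adults, where Myod1, Myf5 and Myf6 did not pass the filter on low counts. Myod1 had 1 count over the 4 AireKO libraries of mTEChi and 53 over the 7 WT libraries, a level 28.6 times higher in WT with a 95% counting interval of 4.91 to 1149. In neonatal mTEChi Myod1 was at 12 ± 13.5 (SD, n = 3) CPM in EEDcKO, with libraries from 1.86 to 27.4 CPM, and 2.04 ± 0.786 (n = 5) in Ctrl, and rose by 2.53 (SE 0.64, edgeR adjusted p = 0.00425). Myf5 was at 8.35 ± 3.01 CPM in AireEEDdKO mTEChi, 1.40 ± 1.63 in EEDcKO (2.31, SE 0.76, edgeR adjusted p = 0.0313) and 1.72 ± 1.25 in AireKO (2.04, SE 0.79, edgeR adjusted p = 0.0788). Myf6 was at 2.56 ± 1.61 CPM in AireEEDdKO mTEClo and 0.170 ± 0.208 CPM in EEDcKO (3 counts in all), a ratio of 11.3 with a 95% counting interval of 3.49 to 57.8.

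In neonatal AireKO mTEChi 26 of the 97 other muscle genes fell (12.8% of all genes) and 8 rose (3.56%) against Ctrl, with a median of -0.36 (all genes 0.03). In AireEEDdKO against AireKO 23 of 97 rose (6.69% of all genes) and 0 fell (2.78%), with a median of 0.87. Myh8 was at 0 counts in AireKO, 15.8 ± 8.67 CPM in Ctrl and 20.7 ± 2.62 CPM in AireEEDdKO, at least 29.1-fold and 43.0-fold above AireKO. Pax3, a factor of muscle progenitors, rose from 0.739 ± 0.691 CPM in AireKO to 17.8 ± 5.46 CPM in AireEEDdKO (4.43, SE 0.64, edgeR adjusted p = 4.21e-05). EED loss alone raised 10 of 97 in mTEChi, near the share of all genes (8.48%), and lowered 2 (5.4% of all genes), the latter being Trdn (-2.87, SE 0.70, edgeR adjusted p = 0.00338) and Neb, the thin-filament ruler nebulin (-2.73, SE 0.40, edgeR adjusted p = 2.81e-05). AireEEDdKO against EEDcKO mTEChi split, with 17 of 97 higher (4.99% of all genes) and 13 lower (8.36%), among the latter the satellite cell factor Pax7 (-4.96, SE 0.60, edgeR adjusted p = 8.94e-06) and Itga7 (-3.70, SE 0.50, edgeR adjusted p = 3.29e-05). In mTEClo, 11 of 97 rose and 9 fell in EEDcKO against Ctrl, near the shares of all genes (9.51% and 6.22%). In AireEEDdKO against EEDcKO, 22 rose and 0 fell (3.45% and 1.85% of all genes), and against Ctrl 41 rose and 2 fell (12.4% and 8.2%). The largest rises over EEDcKO were those of Myot (3.14, SE 0.51, edgeR adjusted p = 0.000664), Myh4 (2.65, SE 0.69, edgeR adjusted p = 0.0192) and Tnnt3 (2.54, SE 0.41, edgeR adjusted p = 0.000653).

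From mTEClo to mTEChi of adult WT, 47 of the 88 other muscle genes were higher (23.7% of all genes) and 10 lower (12.4%, a similar share), with a median of 1.32 (all genes 0.00). In AireKO 17 were higher and 18 lower, near the shares of all genes (18.5% and 16.7%), with a median of 0.04. Myl3 and Cacna1s, a light chain and a calcium channel, were at 9.25 ± 1.88 and 14.3 ± 4.97 CPM in WT mTEChi and at 1 and 3 counts over the 8 WT libraries of mTEClo. The sarcolipin gene Sln was at 0 counts in AireKO mTEChi and 6.78 ± 4.31 CPM in AireKO mTEClo, at least 23.6-fold lower. The effect of Aire loss was lower in mTEChi than in mTEClo for 29 of these genes (11% of all genes) and higher for 1 (2.7%). In neonatal Ctrl mice 22 of 97 were higher in mTEChi (13.8% of all genes) and 2 lower (6.92%), led by Pax3 (2.38, SE 0.55, edgeR adjusted p = 0.00218).

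The 10 genes fell into different patterns across libraries. Over the 23 adult libraries, Pearson's r of log2(CPM + 1) was 0.91 between Acta1 and Myl1, 0.90 between Myog and Acta1, 0.88 between Chrna1 and Ttn and 0.87 between Chrna1 and Ryr2, but -0.60 between Acta1 and Ttn and -0.57 between Myog and Ryr2. Over the 24 neonatal libraries it was 0.91 between Myog and Des, 0.84 between Actc1 and Mef2c and 0.82 between Des and Mef2c, and -0.34 between Actc1 and Ttn. These values describe libraries that share fraction and genotype, and in part library kind or accession block. Actc1, Mef2c and Ryr2 were chosen for their neonatal pattern, so a high neonatal value between any of them can reflect that choice. Among all tested genes, those most like Myog over the neonatal libraries were Mymx, which encodes a myoblast fusion protein (r = 0.931), Tmem109, Rabep2, Junb and Neurl1a (0.915 to 0.928). For Chrna1 they were Mylk4 (0.929) and Tnnt3 (0.895), followed by Trp53inp2, AC124169.1 and Slco4a1, and for Actc1 Dlk1 (0.937) and Ryr1 (0.902), followed by Dclk1, Tmem200a and Frmpd1. Mef2c was most like Dclk1 (0.941), B830012L14Rik, Rian, Meg3 and Plk2, and Ryr2 like Pkhd1 (0.849), Deptor, Fhod3, Gstt1 and Crmp1. Over the adult libraries, Myog was most like Smtnl2 (0.937), Cdk4, 5430431A17Rik, Engase and Tubb2b, and Chrna1 like Marco (0.960), Fendrr, Myh13, Reg4 and Alx4.

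**Figure D5:**
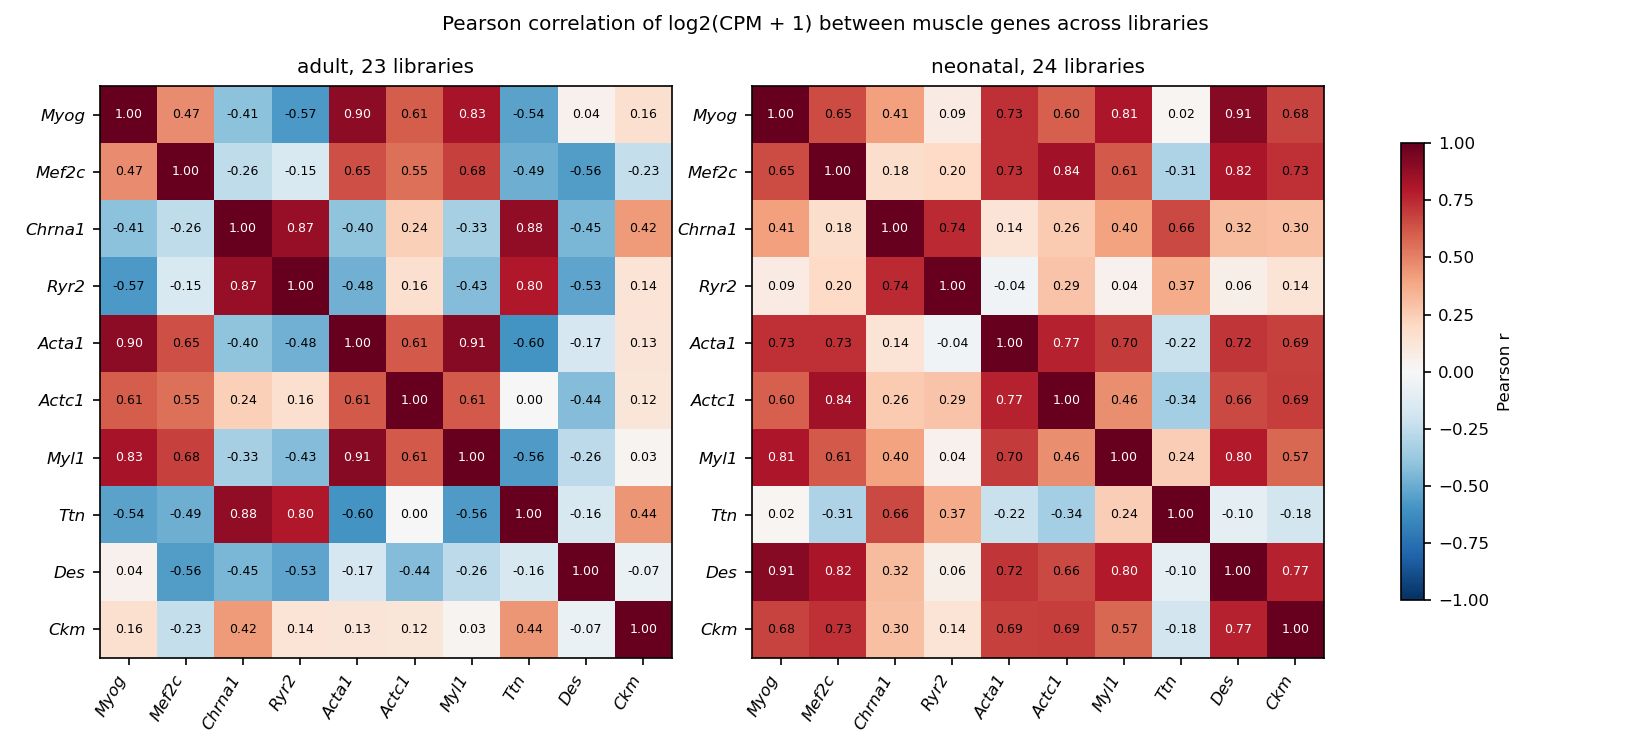
Pearson correlation of log2(CPM + 1) between each pair of the 10 genes across the 23 adult libraries (left) and the 24 neonatal libraries (right), from blue (-1) through white to red (1). In adults a group of Myog, Acta1 and Myl1 is set against Chrna1, Ryr2 and Ttn. In neonates Myog, Mef2c, Acta1, Actc1, Des, Myl1 and Ckm are correlated with each other, from 0.46 (Actc1 and Myl1) to 0.91 (Myog and Des). Chrna1, Ryr2 and Ttn correlate less with these genes (at most 0.41, Chrna1 and Myog). Chrna1 is at 0.74 with Ryr2 and 0.66 with Ttn. Actc1, Mef2c and Ryr2 were chosen for their neonatal pattern.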

How the data were processed

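Full-length total RNA libraries of sorted mTECs were sequenced. The authors trimmed reads with fastp 0.20.0 (to 50 bases where needed), aligned them to mm10 with STAR 2.7.3a and an Ensembl annotation whose release is not given in the sources used here, dropped alignments of mapping quality under 5 with SAMtools 1.9, removed duplicates with Picard 2.21.1 and counted unstranded reads per gene with htseq-count 0.11.2. The deposited values used are these raw counts; normalized tables were not used. Duplicate removal can compress highly expressed genes, and unstranded counting merges antisense genes.

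The adult table (23 libraries, 4 groups) and the neonatal table (24 libraries, 7 groups) were fitted separately with edgeR 4.0.16 (R 4.3.3): genes were filtered by expression, scaled by TMM and tested by the quasi-likelihood F-test in a model with a coefficient per group. A call needed a Benjamini-Hochberg adjusted p under 0.05 over all tested genes and a 2-fold change. CPM use TMM-scaled library sizes, fold changes are log2, standard errors are the fold change over the square root of F, and correlations use log2(CPM + 1). Depth sets precision: 95% counting intervals and the limit of 3 counts behind a count of 0 cover counting error only. Symbols, positions and exon lengths come from GENCODE M21 (GRCm38), and start regions from RefSeq (GRCm38.p6). The muscle and marker lists, and the 10 genes themselves, were chosen with earlier results of these data known. Actc1, Mef2c and Ryr2, whose tests in neonatal mTEClo had been planned, were left untested in all neonatal comparisons because their pattern chose them. Besides genes of the acetylcholine receptor and the MyoD family, the 3 list genes of largest change per comparison among those called at a mean of at least 5 CPM were named. The test was also run on simulated counts, whose outcome is not given here.

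Deviations of libraries of the same replicate number were correlated in adult AireKO mTEChi against mTEClo (r from 0.145 to 0.238). There only mTEChi replicates 2 and 4 were most like the library of their own number. In neonatal AireEEDdKO against AireKO mTEChi (0.122 to 0.226) and AireEEDdKO against Ctrl mTEClo (0.0566 to 0.176), every AireEEDdKO library was most like that of its own number. Alternatives were no minimum change, DESeq2 1.42.0, other scalings and filters, a replicate block, sex or age terms, fits of only the compared groups and leaving out each library. Splits by library kind and accession block were added after seeing the data.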

Additional observations from a re-analysis of the deposited data

Results flagged for a closer look

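A library far from the rest of its group was found in 4 of the 60 gene and group sets of 4 to 10 libraries, where chance gives about 1 in 20. These were Myl1 in adult AireKO mTEChi replicate 3 (0.685 CPM, the others at 0), Ryr2 in adult AireKO mTEChi replicate 1 (20.6 CPM, the next at 12.7), and, in neonatal Ctrl mTEChi replicate 1, Acta1 (5.06 CPM, the next at 3.03) and Mef2c (11.8 CPM, the next at 9.24).

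The effect of Aire loss differed between adult mTEChi and mTEClo, by edgeR's quasi-likelihood test of the difference itself, for 8 genes. The difference (mTEChi minus mTEClo, log2) was -1.89 for Myog (edgeR adjusted p = 0.00252), -2.15 for Chrna1 (2.62e-05), -4.91 for Actc1 (0.00188), -4.25 for Acta1 (6.38e-05), -1.73 for Ckm (0.00524), 1.53 for Des (0.000201), -4.24 for Myl1 (0.000975) and -1.46 for Ryr2 (0.00487). The Myl1 value rests on 2 counts in AireKO mTEChi. With a term for library kind, 6 of the 10 genes passed, and Myog (-0.99), Actc1 (-2.82) and Ckm (-1.17) did not. All AireKO libraries of mTEChi are of 1 kind, so that term rests on the AireKO libraries of mTEClo alone, whose kinds also differ in age.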

How the results depend on the processing

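No call changed direction under any alternative run. The number of genes past the threshold moved by over 1.5 times in these cases, and the cause was not tested: with age as a term, 2 in adult mTEClo AireKO against WT (4 in the report) and 4 in neonatal mTEChi AireEEDdKO against EEDcKO (2), which gave 5 with sex as a term. In neonatal mTEChi AireKO against Ctrl (0) it was 1 with no minimum change, with a replicate block, with sex as a term and with only the groups compared. The interaction (0) gave 1 with no filter on low counts and with only the groups compared. In neonatal mTEClo AireEEDdKO against EEDcKO (7) it was 1 with only the groups compared and 1 in the later accession block. In these fits 40 of 18038 and 50 of 18387 genes passed, against 1071 of 20196 in the main fit. Between neonatal Ctrl fractions (2) it was 1 with age as a term. The replicate block moved no other count by over 1.5 times. In neonatal mTEChi AireKO against Ctrl, no AireKO library was most like the Ctrl library of its own number. DESeq2 moved no count by over 1.5 times.

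Leaving out 1 library at a time gave 7 to 7 genes in adult mTEChi AireKO against WT, 1 to 5 in mTEClo, 6 to 8 between WT fractions, 5 to 7 between AireKO fractions and 8 to 8 for the difference of these effects. In neonatal mTEChi it gave 2 to 3 for EEDcKO, 0 to 2 for AireKO, 1 to 5 for AireEEDdKO against AireKO, 2 to 4 against EEDcKO and 0 to 1 for the interaction. In AireKO against Ctrl it was 2 without Ctrl replicate 5 and 1 without AireKO replicate 2. In AireEEDdKO against EEDcKO it was 4 without EEDcKO replicate 2 or AireEEDdKO replicate 3, and the interaction gave 1 without EEDcKO replicate 1. In neonatal mTEClo it gave 3 to 4 for EEDcKO, 2 to 7 for AireEEDdKO against EEDcKO and 6 to 6 against Ctrl, 2 to 2 between Ctrl fractions and 0 to 0 for the difference of the EEDcKO effects. With library size as the only scaling, the median of all genes moved to -0.18 in adult mTEChi AireKO against WT and in neonatal mTEChi AireKO against Ctrl, where 357 genes were called higher and 3084 lower (718 and 2593 with TMM). Low counts limit Myl1, Acta1 and Actc1 in AireKO mTEChi most.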
